A study of Mus musculus with 2 samples.

Results

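The ribosomal protein genes encode the protein parts of the ribosome, and their occupancy by Ring1B in mouse embryonic stem (ES) cells was described here from 74 genes among 16708 measured. A gene was a member when its name on the array was Rpl or Rps followed by a number, with at most one added letter (a, x, l or y), and when it had at least 3 usable probes. Ribosomal protein kinases such as Rps6ka1 were left out. The choice used names alone and no measured ratio. Of the 74 members, 43 belong to the large subunit and 31 to the small subunit, and they carried 1790 probes in all, with a median of 24 and between 5 and 51 per gene. No name that matched the rule was lost to the minimum of 3 probes.

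DNA immunoprecipitated with a monoclonal antibody to Ring1B was labelled with Cy5, and input DNA of the same kind of cells with Cy3. Both were hybridised to a pair of Agilent promoter slides that share 0 probes and tile the surroundings of gene starts. Slide 1 carried 34 of the members and slide 2 carried 40. There was 1 array per slide, without a dye swap, a mock immunoprecipitation or a second cell type, so no replicate error exists for any gene and no test was made. The SD printed beside a gene mean is the spread over its own probes, which share 1 hybridisation and are not replicates. The sample titles say ES cells, while the source names begin with the word Muscle; the titles were followed, and genomic DNA holds no transcript by which the cell type could be checked. The labels name no ES cell line, genotype or treatment.

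Ring1B, also called Rnf2, is a ubiquitin ligase of Polycomb repressive complex 1, which attaches ubiquitin to histone H2A. In ES cells this complex is known to gather at the CpG-rich promoters of silent developmental regulators, with the Hox clusters as the classical case. Ribosomal protein genes lie at the other end: they are transcribed at very high rates in dividing cells, mostly from CpG-rich promoters, and many of their transcripts begin with a run of pyrimidines through which their translation is controlled. They therefore pair a CpG-rich start with strong transcription, and Hox genes served here as the group known for Ring1B. The value of each probe was log2 of immunoprecipitated over input signal, with the median probe of its array subtracted ("centred log2 ratio"), so that 1 is a ratio 2 times that of the array's median probe. The value of a gene was the mean over its probes.

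Promoter sequences are shown for the members with the highest and lowest ratios near the start that had a RefSeq promoter. Those of Rpl11 and Rpl35a, the lowest and highest members by gene mean, are shown too. Each runs 5′ to 3′ on the gene's strand, from 250 bases before the RefSeq start through the first 30 bases of the transcript, in build GRCm38.p6. Capitals mark the bases matched by a probe of the array. The values near the start also rest on probes outside the sequences shown. Rpl10 lies on the plus strand at chrX:74270566-74270845, Rpl7a on the plus strand at chr2:26910557-26910836, and Rpl6 on the plus strand at chr5:121204251-121204530; these 3 had the highest ratios near the start. Rpl3l lies on the plus strand at chr17:24732435-24732714 and Rpl4 on the plus strand at chr9:64173137-64173416; both were among the lowest 3 there, together with Rpl36, which is named only. Rpl11 lies on the minus strand at chr4:136053364-136053643 and Rpl35a on the plus strand at chr16:33056232-33056511.
Rpl10: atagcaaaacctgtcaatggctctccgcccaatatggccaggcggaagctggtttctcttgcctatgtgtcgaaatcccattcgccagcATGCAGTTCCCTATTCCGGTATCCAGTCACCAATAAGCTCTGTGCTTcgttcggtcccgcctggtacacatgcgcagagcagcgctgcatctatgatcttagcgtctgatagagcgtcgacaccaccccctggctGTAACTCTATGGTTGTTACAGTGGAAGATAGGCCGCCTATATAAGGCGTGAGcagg
Rpl7a: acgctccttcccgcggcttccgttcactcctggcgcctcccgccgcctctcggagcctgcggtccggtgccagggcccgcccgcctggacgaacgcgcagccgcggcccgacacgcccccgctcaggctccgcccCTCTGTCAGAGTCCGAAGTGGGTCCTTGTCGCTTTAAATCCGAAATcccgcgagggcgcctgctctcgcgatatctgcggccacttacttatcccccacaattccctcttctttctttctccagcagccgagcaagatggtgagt
Rpl6: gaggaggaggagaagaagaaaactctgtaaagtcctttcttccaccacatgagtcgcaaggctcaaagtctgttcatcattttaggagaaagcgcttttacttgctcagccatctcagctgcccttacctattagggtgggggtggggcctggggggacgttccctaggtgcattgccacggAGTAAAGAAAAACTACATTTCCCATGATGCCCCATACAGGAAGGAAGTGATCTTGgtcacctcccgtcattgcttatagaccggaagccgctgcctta
Rpl3l: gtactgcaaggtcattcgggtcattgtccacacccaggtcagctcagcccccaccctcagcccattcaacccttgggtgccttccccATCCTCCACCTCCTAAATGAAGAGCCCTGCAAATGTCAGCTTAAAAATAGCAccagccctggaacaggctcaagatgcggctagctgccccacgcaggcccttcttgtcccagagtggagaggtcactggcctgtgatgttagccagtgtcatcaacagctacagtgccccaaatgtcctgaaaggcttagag
Rpl4: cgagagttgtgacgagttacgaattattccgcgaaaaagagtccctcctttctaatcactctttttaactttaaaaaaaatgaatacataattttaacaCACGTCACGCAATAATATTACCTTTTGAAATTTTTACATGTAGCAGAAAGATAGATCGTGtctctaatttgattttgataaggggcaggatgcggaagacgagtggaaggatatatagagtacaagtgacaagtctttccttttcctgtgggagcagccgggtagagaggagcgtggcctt
Rpl11: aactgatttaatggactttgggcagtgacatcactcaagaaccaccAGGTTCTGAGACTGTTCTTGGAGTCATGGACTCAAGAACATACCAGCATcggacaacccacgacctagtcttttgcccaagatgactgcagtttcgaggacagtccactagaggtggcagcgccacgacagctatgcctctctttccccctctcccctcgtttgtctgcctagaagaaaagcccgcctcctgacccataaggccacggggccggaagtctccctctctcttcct
Rpl35a: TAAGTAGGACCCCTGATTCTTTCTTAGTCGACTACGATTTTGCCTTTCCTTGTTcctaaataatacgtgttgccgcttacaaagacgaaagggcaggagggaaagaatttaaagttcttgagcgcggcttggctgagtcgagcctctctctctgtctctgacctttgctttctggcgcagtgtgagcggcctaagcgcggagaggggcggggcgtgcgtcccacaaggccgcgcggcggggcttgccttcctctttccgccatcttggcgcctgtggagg

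Across the whole list the ratios lay around those of the genome. The median of the 74 gene means was -0.09 (SD over genes 0.37), against 1.41 for 33 Hox genes and -0.10 for all 16708 genes. No member reached 1 in either direction: 0 of 74 were at or above 1 and 0 of 74 were at or below -1. Over all genes the upper class held 1.98% and the lower class 1.85%, and a count of 0 among 74 is too near these shares to set the list apart. Of the Hox genes, 27 of 33 were at or above 1. At the lower bound of 0.5, 5 members lay at or above it (6.76%), against 7.58% of all genes, and 12 lay at or below -0.5 (16.2%), against 15.4% of all genes. The other 57 members lay between. The sign of the list's median depended on the scaling: it was 0.12 after normexp background correction, 0.11 in the authors' deposited log2 table after centring, and 0.11 without centring. The median of all genes then stood at 0.01, 0.02 and 0.10.

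**Figure D1:**
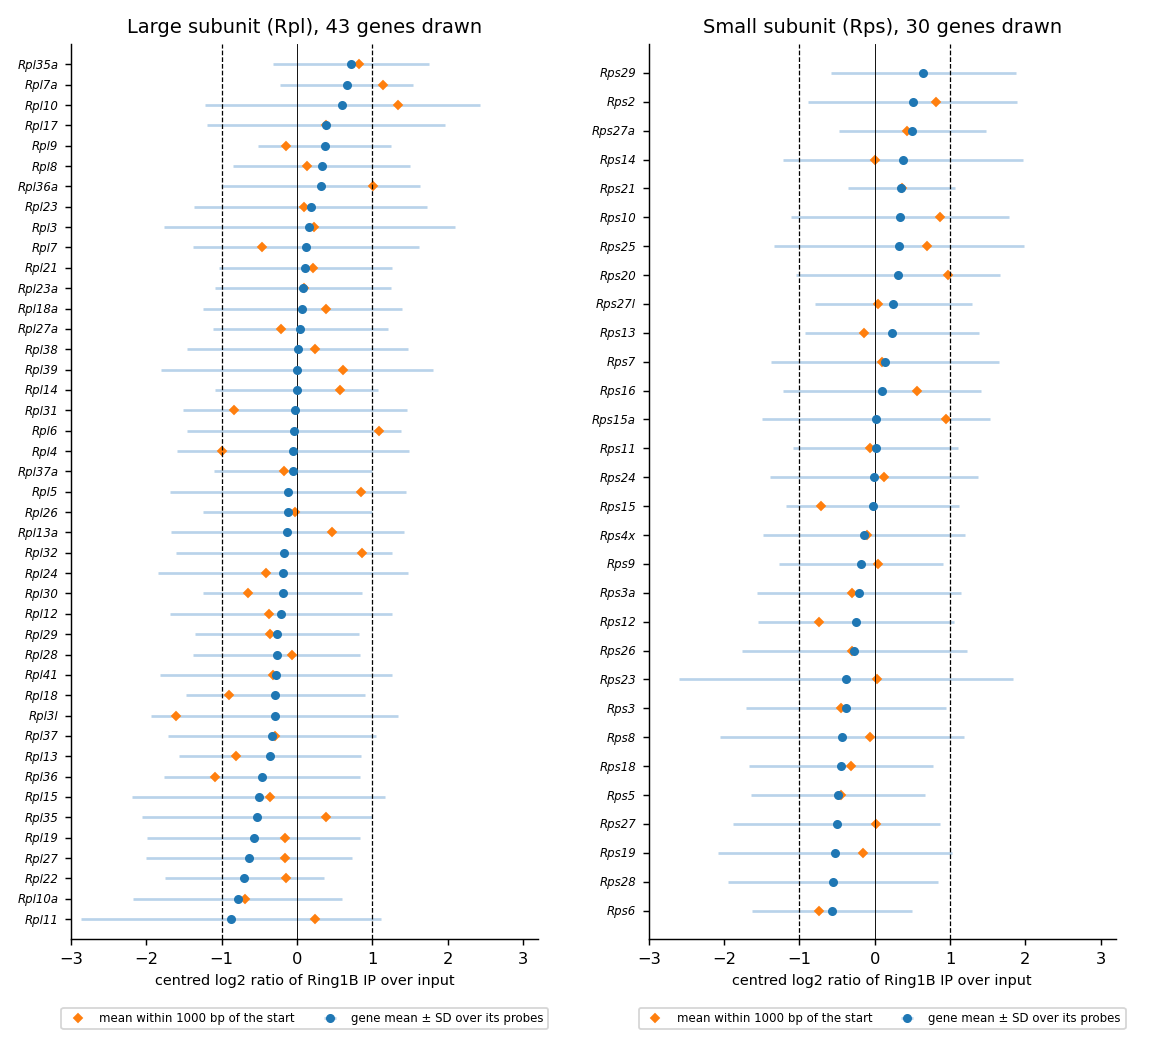
Centred log2 ratio of Ring1B immunoprecipitated over input DNA (x axis) for the 43 large-subunit genes (left) and 30 of the 31 small-subunit genes (right). Circles give the gene mean with its SD over probes, diamonds the mean within 1000 bp of the start, and dashed lines mark -1 and 1. All 73 circles lie between the dashed lines, while 6 diamonds, all of large-subunit genes, lie outside them.

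Of the large-subunit genes, the highest was Rpl35a (17 probes on chromosome 16), a gene mutated in some families with Diamond-Blackfan anaemia. Its mean was 0.71 (SD 1.03 over probes), 9 of its probes lay at or above 1 and 1 at or below -1. Its median signal was 668 in immunoprecipitated DNA, against 224 in input DNA. With the median of the probes in place of the mean, Rpl35a stood at 1.07. Rpl7a, encoded within the Surfeit cluster of closely packed housekeeping genes, followed with 0.66 (SD 0.88, 9 probes). Rpl10, which joins the large subunit late in its assembly and lies near the tRNA sites, had 0.60 (SD 1.82, 22 probes). Rpl17, which lines the tunnel through which the new protein leaves, had 0.38 (SD 1.57, 19 probes). In each of these 4 genes the SD over probes was larger than the mean. The probe medians of Rpl7a, Rpl10 and Rpl17 were 0.14, 0.44 and 0.40.

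At the low end of the large subunit stood Rpl11, which joins Rpl5 and 5S ribosomal RNA and also binds the p53 regulator Mdm2. Its mean was -0.88 (SD 2.00, 19 probes), with 11 probes at or below -1 and 3 at or above 1. Within 1000 bp of its start the mean was 0.24 (SD 1.02, 6 probes), so the low gene mean came from probes farther out. Taken as the median of the probes, Rpl11 stood at -1.06. Rpl10a, the protein of the mobile L1 stalk, had -0.79 (SD 1.38, 23 probes), with 8 probes at or below -1. Rpl22, which is not needed for ribosome function in most tissues but is for T cell development in mice, had -0.70 (SD 1.06, 37 probes). Rpl27 had -0.64 (SD 1.36, 18 probes) and Rpl19, which takes part in a bridge between the subunits, had -0.58 (SD 1.41, 31 probes). The probe medians of Rpl10a, Rpl22, Rpl27 and Rpl19 were -0.50, -0.55, -0.12 and -0.20. Within 1000 bp of the start, Rpl10a averaged -0.69 (SD 1.80), Rpl22 -0.15 (SD 1.08), Rpl27 -0.17 (SD 1.24) and Rpl19 -0.16 (SD 1.34). Probes named for a pair of genes made up 24 of the 37 of Rpl22 and 20 of the 31 of Rpl19. Rpl10a and Rpl22 were bright in input DNA, with median signals of 2364 and 1172, against 302 for the median gene of the arrays.

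The highest of the small-subunit genes was Rps29, a zinc-binding protein of the subunit's head, at 0.65 (SD 1.23), but this rested on 5 probes and the array gave no start for it. Rps2, at the entry of the mRNA channel, had 0.50 (SD 1.39, 10 probes). Rps27a, made as a fusion with ubiquitin, had 0.50 (SD 0.98, 25 probes), and Rps14, a gene lost in human 5q- syndrome, had 0.37 (SD 1.59, 24 probes). Toward the other end were Rps6 at -0.57 (SD 1.06, 19 probes) and Rps28 at -0.55 (SD 1.39, 6 probes). Rps6 is the main ribosomal target of the S6 kinases. The probe medians of Rps29, Rps2, Rps27a and Rps14 were 0.38, 0.38, 0.19 and 0.48, and those of Rps6 and Rps28 were -0.10 and -0.72. Set side by side, the large subunit had a median of -0.12 (SD 0.37, 43 genes) and the small subunit -0.03 (SD 0.37, 31 genes). No test of this gap was made. In the large subunit 3 genes (6.98%) reached 0.5 and 7 (16.3%) reached -0.5 or less. In the small subunit these were 2 (6.45%) and 5 (16.1%). In both subunits, as among all genes (7.58% and 15.4%), more genes lay past 0.5 on the low side.

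The 13 members known as genes of Diamond-Blackfan anaemia, an inherited failure of red cell production, held both extremes of the list, Rpl35a and Rpl11. Their median was -0.13 (SD 0.50), with 2 at or above 0.5 (15.4%) and 5 at or below -0.5 (38.5%), against 7.58% and 15.4% of all genes; with 13 genes each count is small. All but 1 of the 13 had probes near the start, with a median of 0.03 there. None of the 12 lay past 1 in either direction, where all genes have 8.14% and 6.69%, a count too small to set them apart. By slide, the 34 members of slide 1 had a median of -0.15, against -0.13 for all 8432 genes of that slide, and the 40 of slide 2 had -0.02, against -0.07 for all 8276. Each slide's members thus lay close to that slide's own genes.

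**Figure D2:**
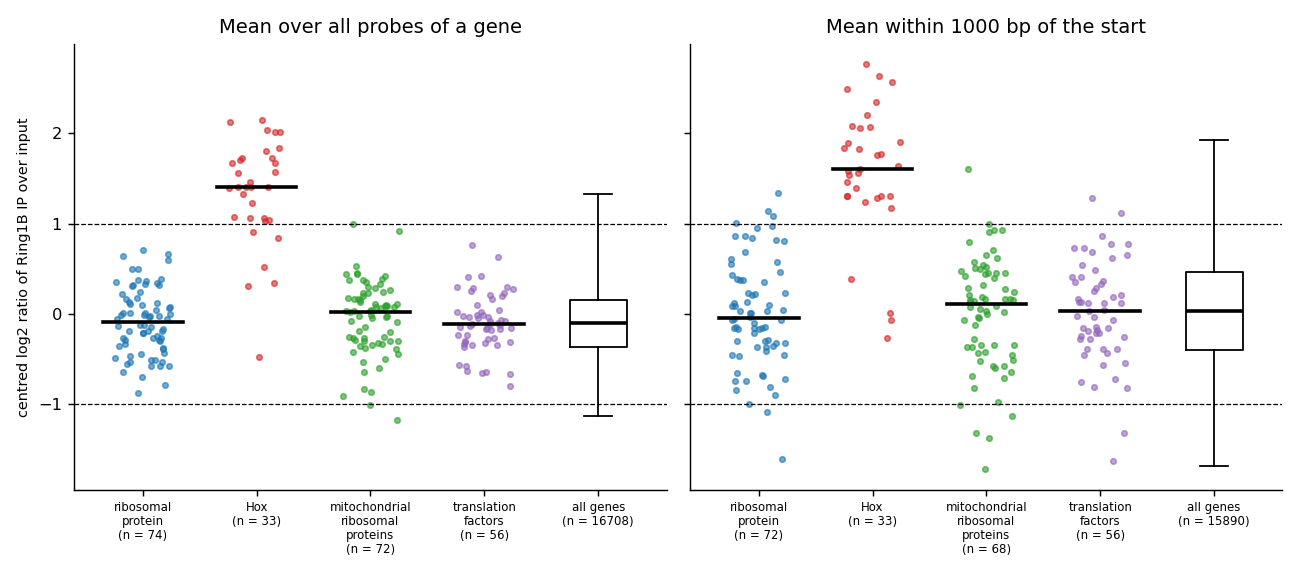
Centred log2 ratio (y axis) as the mean over all probes of a gene (left) and within 1000 bp of its start (right). Points are genes and thick bars medians; for all genes the box spans the quartiles and the whiskers the 1st and 99th percentiles. The ribosomal protein genes centre on -0.09 and -0.05, the Hox genes on 1.41 and 1.60, and all genes on -0.10 and 0.03.

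Near the start, members spread more widely than by their gene means, and so did all genes. The quartiles of all genes were -0.40 and 0.46 near the start, against -0.36 and 0.16 by gene mean. On slide 1 the distance from the start was the one given with each probe. On slide 2 the start was taken as the point between the last promoter probe and the first probe inside the gene. Probes within 1000 bp of the start were present for 72 members. Their median was -0.05, against 1.60 for the 33 Hox genes and 0.03 for all 15890 genes with such probes. Of the 72 members, 4 lay at or above 1 (5.56%) and 2 at or below -1 (2.78%), against 8.14% and 6.69% of all genes and 29 and 0 of the 33 Hox genes. These counts are too small to set the list apart from the background. All 6 of these members were large-subunit genes. Without probes named for a pair of genes, a choice made after seeing the data, 6 members lay at or above 1 (8.33%) and 4 at or below -1 (5.56%), against 8.74% and 7.49% of all genes, and Rps2 of the small subunit was among the 6 (1.04 over 2 probes).

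The highest was Rpl10, with a mean near the start of 1.34 (SD 1.83 over 11 probes). There 8 of the 11 probes lay at or above 1 and 1 lay at or below -1, and values ran from -3.16 to 3.57. Its median signal near the start was 512 in immunoprecipitated DNA, against 111 in input DNA. Rpl7a had 1.14 (SD 0.71, 4 probes), with 3 probes at or above 1 and the other at 0.14. Rpl6 had 1.08 (SD 0.70, 6 probes), with no probe below 0.14, although its gene mean was -0.04. Rpl36a had 1.01 (SD 0.97, 12 probes), with 5 probes at or above 1 and none at or below -1. Its upstream probes there are shared with Btk, and the 6 probes named for Rpl36a alone averaged 0.47 (SD 0.72), so it did not reach 1 without the shared ones. Rpl10 and Rpl7a stood high by both measures, whereas Rpl6 and Rpl36a stood high near the start alone.

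The lowest was Rpl3l, with a mean near the start of -1.61 (SD 1.05 over 11 probes), where 9 of the 11 probes lay at or below -1. Its median signal there was 569 in immunoprecipitated DNA, against 1998 in input DNA. Rpl36 followed with -1.09 (SD 0.33), and each of its 5 probes was negative, from -1.55 to -0.67. Rpl4, an exit tunnel protein, had -0.998 (SD 2.05, 9 probes), just inside the bound, with probes from -4.77 to 1.81. Rpl18 had -0.90 (SD 1.35, 9 probes), but its 35 probes lay at 3 places in the genome, of which the one on chromosome 7 held every probe inside the gene; its 13 probes there averaged -0.09 (SD 1.29), and the 6 of them within 1000 bp of the start -0.68 (SD 1.19). Of these 4 lowest genes, only Rpl36 had probes that all lay on one side of 0.

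**Figure D3:**
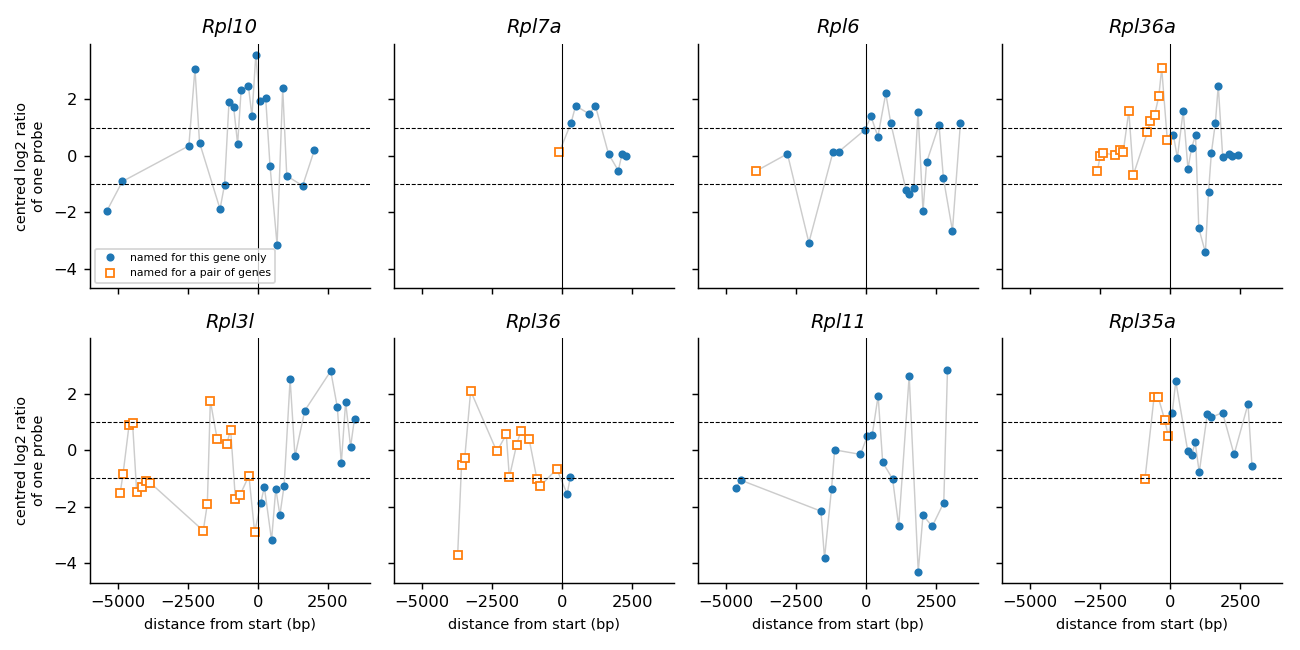
Centred log2 ratio of single probes (y axis) by distance from the start in bp (x axis, upstream negative; probes farther out are not drawn) for the members highest near the start (upper row), Rpl3l and Rpl36, the lowest there, and Rpl11 and Rpl35a (lower row). Open squares are probes named for a pair of divergent genes and filled circles probes named for the gene alone. Around the start of Rpl10 most probes lie above 1, around that of Rpl3l most lie below -1, and in Rpl11 probes within one gene run from -4.30 to 2.85.

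Along the promoter, the members' mean ratio in 500-bp bins stayed between -0.42 and 0.28 over positions -5500 to 2500 bp. The highest bin was the first 500 bp inside the gene, at 0.28 (SD over genes 1.00, 70 genes), against 1.68 for Hox genes and 0.05 for all genes. The bin just before the start was at -0.06 (SD 1.00, 71 genes), against 1.49 for Hox genes and 0.05 for all genes. Beyond 2000 bp upstream, 59 members had a median of -0.15, against 1.14 for Hox genes and -0.13 for all genes. No bin of the members came near the lowest Hox bin, 0.65. Of the 72 members with probes on both sides within 1000 bp, 43 (59.7%) had a lower mean upstream than inside, against 51.0% of all genes.

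**Figure D4:**
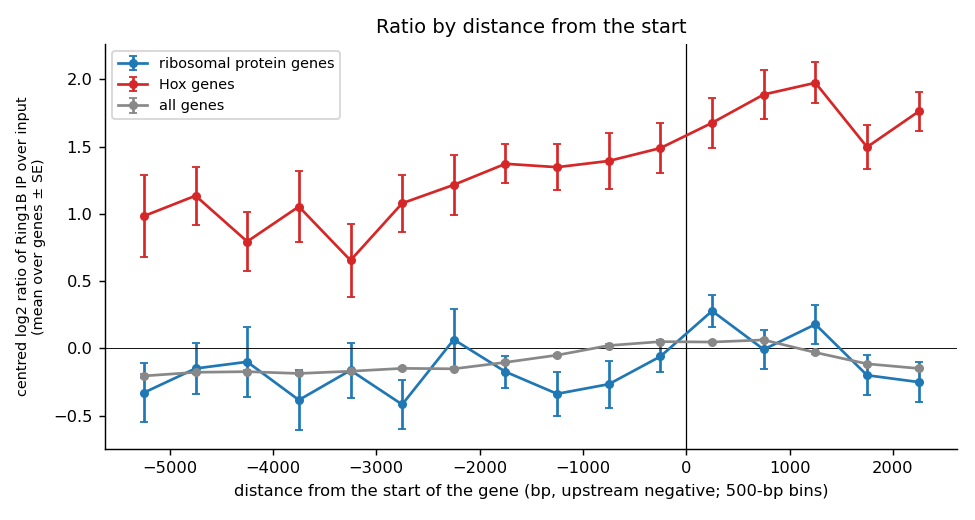
Mean centred log2 ratio over genes ± SE over genes (y axis) in 500-bp bins of distance from the start (x axis, upstream negative) for ribosomal protein genes, Hox genes and all genes. The ribosomal protein genes stay between -0.42 and 0.28, and Hox genes between 0.65 and 1.97.

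Ring1B regions of Polycomb targets are known to be broad, so stretches where a running mean stayed at or above 1 were measured as well. The mean at each probe covered the probes within 500 bp on either side of it. None of the 74 members had such a stretch of at least 2000 bp, against 27 of 33 Hox genes and 3.01% of all genes. At least 1000 bp was reached by 2 members (2.70%), against 31 of 33 Hox genes and 8.25% of all genes. One was Rpl7a, with 1913 bp at a mean of 1.54 over 8 probes, from the start into the gene and across to probes of its divergent neighbour Surf5; 5 of the 8 probes carried the name Rpl7a. It lay at chr2:26917427-26919339 in the array's own coordinates, for which no build is stated in the sources used here. The other was Rps13, a small-subunit protein that takes part in a bridge between the subunits, with 1043 bp at a mean of 1.54 over 5 probes, at positions 1788 to 2772 bp, inside and beyond the gene. Short stretches of any length were found in 27 members (36.5%), against 29.4% of all genes.

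With the sign turned, a stretch of at least 2000 bp at or below -1 was found in 1 member, against 0.964% of all genes. It was Rpl10a, with 2138 bp at a mean of -1.64 over 10 promoter probes, at positions -2588 to -497 bp. At least 1000 bp was reached by 6 members (8.11%), against 10.2% of all genes. Among them Rpl3l had 1154 bp across its start at a mean of -1.97 over 7 probes. Negative stretches of any length were found in 29 members (39.2%), against 46.9% of all genes. The longest negative stretch of the list was longer than the longest positive one, which compares 1 gene with 1 gene.

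Paralogues could be set beside their partners in 2 cases. Rpl3l replaces Rpl3 in heart and skeletal muscle, and Rpl3 helps shape the peptidyl transferase centre. Rpl3l averaged -0.30 (SD 1.64, 38 probes) and Rpl3 0.16 (SD 1.93, 27 probes). Near the start the pair stood at -1.61 and 0.22 (SD 1.05 and 2.01). Without the probes that Rpl3 shares with Syngr1 its gene mean was 1.02, the single member to reach 1 under that choice. In that setting Rpl3l, which shares probes with Ndufb10, stood at -0.05. Rps27l, a paralogue induced by p53, averaged 0.25 (SD 1.05, 24 probes) and Rps27 -0.51 (SD 1.37, 25 probes). Near the start these were 0.04 (SD 0.89, 10 probes) and 0.01 (SD 1.50, 7 probes). The probes of one gene share a hybridisation, so none of these gaps has a replicate error.

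The X-linked members were Rpl10, Rpl36a, Rpl39 and Rps4x, with gene means of 0.60, 0.32, 0.00 and -0.15. Rpl39, a short protein of the exit tunnel, had probes from -4.02 to 3.84, and Rps4x has a partner copy on the human Y chromosome. Near the start, Rpl10 and Rpl36a lay at or above 1, Rpl39 had 0.61 (SD 2.10, 10 probes) and Rps4x -0.10 (SD 1.75, 11 probes). Probe positions of Rps4x counted from the array's start differ from those counted from the RefSeq start by -1086 bp, so its window near the start lies away from the RefSeq promoter. Hence 2 of 4 X-linked members reached 1 near the start, against 0 of 34 autosomal members of the same slide and 4.67% of all X-linked genes. Without shared probes 1 of 4 X-linked members did. So did Rpl3 (1.32, SD 2.36, 5 probes) and Rps2 (1.04, SD 1.95, 2 probes), autosomal members of that slide. Input signal was lower on the X: the median was 159 for the X-linked members, against 597 for the autosomal members of slide 2, and 94.6 for all X-linked genes, against 304 for all genes of that slide. The part of input signal in the X-linked values was not tested.

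CpG density was counted on the array's own probes within 500 bp of the start, where 71 of the 74 members had a value. The median was 4.37 CpG per 100 bases for the members, against 3.40 for Hox genes, 2.90 for all genes and 0.42 for olfactory receptor genes. In the most CpG-dense of 3 equal classes of genes lay 38 members (53.5%) and 12 of 33 Hox genes. Within that class, 2 of 38 members (5.26%) were at or above 1 near the start, against 11 of 12 Hox genes and 11.8% of all 5220 genes. The members' median near the start was -0.01 there, against 1.80 for Hox genes and 0.18 for all genes of the class. In the middle class the medians near the start were -0.07 for 30 members, 1.64 for 17 Hox genes and 0.07 for all genes. In the least dense class they were -0.41 for 3 members, 0.66 for 4 Hox genes and -0.16 for all genes. The part of CpG density in these gaps was not tested.

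**Figure D5:**
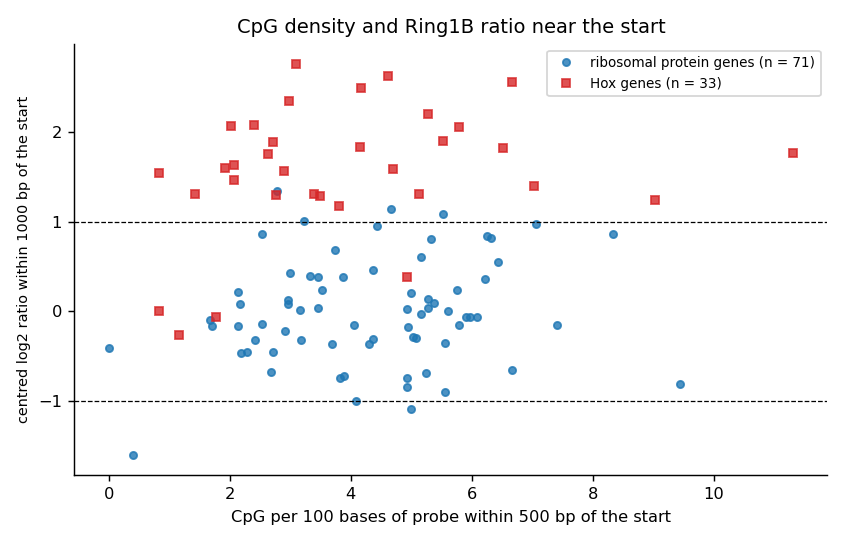
Centred log2 ratio within 1000 bp of the start (y axis) by CpG per 100 bases of probe within 500 bp of the start (x axis) for 71 ribosomal protein genes and 33 Hox genes; dashed lines mark -1 and 1. Most ribosomal protein genes lie below the Hox genes at the same CpG density, and 4 reach 1.

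RefSeq promoters of 300 bases matched 55 of the 74 members by symbol (74.3%), which is under the 80% set for a statement about the list, so the following describes those 55 alone. Of them, 43 (78.2%) had a GC share of at least 50% and a CpG ratio (observed over expected) of at least 0.6, against 52.6% of the promoters of all 12749 measured genes with an entry. A run of at least 8 pyrimidines within 10 bases of the start was found in 24 (43.6%), against 13.5% of all. CCGGAA, the core of many ETS family sites, was found on either strand in 28 (50.9%), against 21.4%. GGGCGG, the core of a GC box, was in 31 (56.4%), against 52.7%. TATAAA was in 4 (7.27%), against 12.1%, and AAGATGGC, the core of the YY1 site, in 4 (7.27%), against 3.59%. Matches of different motifs can share letters at their ends, and a match describes letters and no binding.

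In the sequences shown above, the run of pyrimidines at the start of Rpl7a was 21 bases long, that of Rpl4 14 bases and that of Rpl35a 13 bases, while the runs of Rpl10 and Rpl3l there did not exceed 4. CCGGAA lay at position 7 of the Rpl11 transcript and position 13 of Rpl6, both inside the shown stretch, and at position -148 of Rpl10. The Rpl3l promoter shown held 3 CpG in its 300 bases, against 33 in that of Rpl7a. The counts over the matched members used the first RefSeq promoter of each gene. For Rpl35a and Rpl3l that was another promoter than the one shown, with 2 CpG for Rpl3l. The longest run near the start of the counted Rpl35a promoter was 4 bases, so Rpl35a is not among those with at least 8.

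Array probes matched inside the RefSeq promoters of 50 members, 66 probes in all. Of these, 9 (13.6%) lay at or above 1 and 14 (21.2%) at or below -1, with a median of -0.13. Of all 474222 probes, at any position, 19.7% and 20.6% did so. Of the probes of all genes in the 500 bp before the start, 22.4% and 18.1% did. The capitals in Rpl10 mark 2 probes. The upstream one, at positions -161 to -115, had 1.40, with a signal of 1559 in immunoprecipitated DNA, against 530 in input DNA. The one across the start, at -26 to 26, had 3.57, with a signal of 836 in immunoprecipitated DNA, against 63.0 in input DNA. That input signal was not called well above background, so the size of this ratio is uncertain. The probe of Rpl7a had 0.14, that of Rpl6 0.92 and that of Rpl11 -0.15, so the high mean of Rpl7a came from probes farther inside the gene. The probe of Rpl3l had -2.91, with 345 in immunoprecipitated DNA, against 2320 in input DNA. The probe of Rpl4 had 0.67, and its input signal was likewise not well above background. The probe of Rpl35a had -1.01, but its position counted from the array's start differs from that counted from the RefSeq start by -680 bp. Such a difference of over 300 bp was found in 6 members, the others being Rpl9, Rpl14, Rpl19, Rps26 and Rps4x. In some members probes of 1 promoter went opposite ways: Rps3a had 1.51 at -174 to -127 and -2.11 at -21 to 24, and Rpl28 had -1.15 at -156 to -112 and 1.37 at -38 to 7.

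Such scatter between probes is general on these arrays. In all 74 members the SD over probes exceeded the size of the gene mean, as in 98.3% of all genes, and the members' median SD was 1.37. Probes past 1 in both directions were found in 70 members (94.6%), against 15201 of all 16708 genes. Over the 1790 member probes, 20.7% reached 1 and 23.2% reached -1 or less, against 62.7% and 4.83% of the Hox probes and 19.7% and 20.6% of all probes. Neighbouring probes under 300 bp apart correlated at r = 0.34 over 1253 pairs of member probes, 0.51 over 1104 Hox pairs and 0.41 over 367149 pairs of all genes; pairs share a hybridisation and fragments, and the values are given as a description.

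The ratio also moved with the brightness of the input. Input signal is the denominator of the ratio, so sorting by it favours high ratios in dim classes and low ratios in bright ones. In 5 equal classes of input signal from dim to bright, the member probes averaged 0.58, 0.94, 0.38, -0.68 and -1.18, and the probes of all genes 0.42, 0.71, 0.26, -0.59 and -1.15. Hox probes averaged 0.77, 1.51, 1.74, 1.48 and 0.86 in the same classes. Member probes ran in the same order of classes as all genes, and Hox probes stood above both in each class. Members were brighter in input than most genes, with a median gene at 446, against 302 for all genes, and 51 of 74 lay above that. The part of input brightness in the ratios given above was not tested.

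Divergent neighbours shared probes with 25 members, 237 probes in all. Those 25 had a median of -0.04 (SD 0.39), against -0.13 (SD 0.36) for the 49 others, and near the start 3 of the 25 lay at or above 1 and 2 at or below -1, against 1 and 0 of 47. Probes annotated as downstream of a gene made up 127 of the members' probes, in 28 members, and without them the list's median was -0.10.

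Other genes of protein synthesis gave values of the same size. The 72 genes for mitochondrial ribosomal proteins, which build the separate ribosome of that organelle, had a median of 0.03 (SD 0.41), with 1 at or above 1 (Mrps25, 1.00) and 2 at or below -1. The 56 initiation and elongation factors had -0.11 (SD 0.32), with none past 1, and ran from -0.80 for Eif5b to 0.77 for Eif4a1. The 19 aminoacyl-tRNA synthetases had -0.29 (SD 0.34), with none past 1. The 28 genes of ribosome biogenesis had -0.06 (SD 0.39), with none at or above 1 and 1 at or below -1, Imp4 at -1.18. A further 10 genes that encode ribosomal proteins or close relatives under other names had -0.30 (SD 0.37), with none past 1; the highest was Rpl22l1 at 0.33. The ribosomal protein genes at -0.09 lay within the range of these medians, and none of these lists had more than 1 gene at or above 1. Near the start the medians were -0.05 for the ribosomal protein genes, against 0.11 for the mitochondrial list, 0.04 for the translation factors, -0.04 for the synthetases, 0.28 for biogenesis and 0.20 for the genes under other names, so the members had the lowest of these 6 medians there; the gaps were not tested.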

How the data were processed

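The deposited files are the scanner output of 2 Agilent arrays, slides 1 and 2 of a mouse promoter set. Per the file headers, the authors extracted spot intensities with Agilent Feature Extraction 9.1.3.1, and the processed intensities are background-subtracted and dye-normalized. The log10 ratio column in the files deposited by the authors is red over green, per the file headers, and served as a check. Per the labels' protocols, cells were fixed with formaldehyde and sonicated, and DNA was amplified by linker-mediated PCR, which can alter the ratio of bright to dim fragments. The series table deposited by the authors holds log2 ratios, which equalled log2 of the mean-signal ratio within 5e-05. No build of the array coordinates is stated in the sources used here.

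Control spots and outlier-flagged spots (141 and 17) were left out, leaving 237054 and 237168 probes. Well above background were 74.1% and 76.3% of probes in input DNA and 77.2% and 80.6% in immunoprecipitated DNA. The log2 ratio of processed red over green intensity was centred on each array's median (0.23 and 0.16) and averaged per gene, a hyphenated name counting for both genes. Probes within 1000 bp of each other formed a stretch, with at least 3 probes. The number of arrays, 1 per slide, limits the precision, so no p-value is given. The members, the other gene lists and the rules for stretches and named genes were chosen with earlier results of these data known. Members named singly are the 8 highest and 8 lowest by gene mean, the 4 highest and 4 lowest near the start, those with a stretch of at least 1000 bp at or above 1, paralogue pairs and X-linked members; others were named after their values were seen. Of the genes these rules name, 1 is not reported here. The CpG classes, the setting without downstream probes and the counts near the start without shared probes were added after seeing the data. The means and stretches were tested on simulated data. Python 3.11.15, pandas 2.3.3 and limma 3.58.1 (R 4.3.3; normexp with offset 50, loess) were used.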

Additional observations from a re-analysis of the deposited data

How the results depend on the processing

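No paired analysis was possible because each slide had 1 array and the slides share no probe, and no replicate could be left out. Across normexp, loess, no centring, the authors' deposited log2 table, the input and floor filters, GC correction, the probe median, 20 probes, and dropping shared or downstream probes, the list's median ran from -0.22 to 0.12, and its sign changed with scaling. Its gap to all genes ran from -0.02 to 0.11. The median near the start ran from -0.15 to 0.23 and far upstream from -0.42 to 0.02. Members at or above 1 numbered 1 with the probe median (Rpl35a) and 1 without shared probes (Rpl3), and members at or below -1 numbered 1 with the probe median (Rpl11). At 0.5 the counts were 5 and 12, and 2 members had a stretch at or above 1 once 1000 bp sufficed. The probe median was not run for stretches. The named members' means kept their sign in all settings except Rpl36a, Rpl3, Rps27l and Rps4x (1 setting each), Rpl39 (3), Rpl4 (4) and Rpl6 (6).

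Scaling moved the genome-wide calls: the share at or above 1 among genes past 1 in either direction was 51.6%, but 88.1% with normexp, 89.6% in the deposited table, 80.1% without centring, 63.3% with GC correction, 65.0% with at least 20 probes, 39.2% without probes at the floor and 23.5% with the input filter. Genes at or below -1 numbered 309, against 59, 49, 123, 219, 154, 658 and 1231 in those settings. All-gene medians were -0.10, and 0.01, 0.02 and 0.10 with normexp, the deposited table and no centring; relative to these the members' median lay at 0.01, 0.11, 0.10 and 0.01. Of the 1790 member probes, 179 were not well above background in either channel, which limits what a ratio near 0 can show. The cause of each shift was not tested.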
